A study of Mus musculus with 16 samples.

Results

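The mitochondrial ribosomal proteins are the nuclear-encoded protein parts of the ribosome inside mitochondria. Members were the genes of the deposited count table whose symbol begins with Mrpl or Mrps followed by a digit, with pseudogenes left out and with at least 1 CPM (counts scaled to a common library total) in 4 or more libraries. Of 36499 gene entries, 85 carried such a symbol, 5 of these were pseudogene entries, and the remaining 80 entries stood for 78 genes, since Mrps10 and Mrps23 are each listed on 2 entries with identical counts and were counted once. All 78 passed the CPM rule, and all 78 were at 1 CPM or more in all 16 libraries. Nearest to the limit was Mrps10, for which the fourth highest library was at 8.19 CPM by library total, and no member lay outside it. By symbol, 49 members belong to the large subunit (Mrpl) and 29 to the small subunit (Mrps). By place in the structure, as general knowledge gives it, 51 sit in the large subunit and 26 in the small one, because Mrps18a and Mrps30 are found in the large subunit and Mrps36 is now known as a component of the 2-oxoglutarate dehydrogenase complex.

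The libraries came from cardiac tissue of mice kept on normal chow, with 4 genotypes and 4 libraries each: double KO (dko in the labels, lacking both Clpp and Fgf21), Clpp KO, Fgf21 KO and wild type. Clpp was deleted throughout the body with Cre recombinase driven by the β-actin promoter, the double KO was made with the same Cre line from mice with both genes floxed, and the labels describe no separate cross for the Fgf21 KO. Age and sex are not given in the labels used here, and no label says that each library is a different animal, and the p-values therefore describe library-to-library spread, part of which could be technical. Libraries held 36260545 to 51820727 counts.

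The mitochondrial ribosome translates the messenger RNAs encoded in mitochondrial DNA, which code for core parts of the oxidative phosphorylation complexes. Its RNA is made inside the mitochondrion, while its proteins are made in the cytosol, imported and assembled into a small subunit, which decodes, and a large subunit, which forms peptide bonds. CLPP provides the peptidase activity of the matrix protease ClpXP, and in mouse heart its loss has been linked to the assembly of the small subunit through ERAL1, a chaperone of the small subunit's RNA. FGF21 is a secreted hormone released by tissues under metabolic or mitochondrial stress.

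Clpp counts followed the labels. Clpp had 272, 267, 289 and 293 counts in double KO and 333, 336, 355 and 308 in Clpp KO, against 2636, 1910, 2007 and 1435 in Fgf21 KO and 1728, 1912, 1807 and 2108 in wild type. Fgf21 had 0 counts in all double KO and Fgf21 KO libraries, 21, 6, 28 and 14 in Clpp KO, and 1, 0, 5 and 0 in wild type, so its counts set the double KO apart from the Clpp KO but are too low to check the Fgf21 KO label against wild type. Marker sums are given, like the members' levels, in CPM after TMM scaling (a trimmed mean that sets library scale). All libraries held heart muscle markers, from 19249 to 40485 CPM summed over Myh6, Actc1, Tnnt2, Tnni3 and Ryr2. Wild-type replicates 2 and 4 stood apart. The 6 atrial markers (Myl7, Myl4, Sln, Nppa, Bmp10 and Dkk3) summed to 10083 CPM in replicate 2 and 6419 CPM in replicate 4, against 74.7 to 3484 CPM in the other 14 libraries, and the fat markers Adipoq, Plin1, Lep and Cfd reached 121 CPM in replicate 4. The medians of comparisons that use wild type are therefore also given without these libraries. Wild-type replicates 1 and 3 were very alike: the chi-square of their counts over genes was 5.70 per degree of freedom, against 23.3 to 419 in the other 23 pairs of libraries of a group. That is more than sampling noise, so they were kept as 2 replicates, but the labels do not say whether they come from separate animals, and wild-type SDs with n = 4 may understate the spread. In bulk tissue, fewer cells of a type and less RNA per cell cannot be told apart.

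Promoters are shown first because genes of this family are known to be driven by a shared set of activating factors, among them the ETS factor GABP and YY1. RefSeq promoters of GRCm38.p6, from 250 bases before to 50 after the start, were at hand for 69 of the 78 members. The ETS core CCGGAAGT was found in 11 of them (15.9%, against 4.00% of all 27025 promoters) and the YY1 core AAGATGGC in 12 (17.4% against 2.88%), reading both strands. At least 1 of these motifs was present in 22 members (31.9% against 6.71%). The 27025 promoters were not limited to genes expressed in heart, as the members are, and the share over such genes was not computed. By subunit the ETS core was in 7 of 43 large and 4 of 26 small subunit promoters, and the YY1 core in 6 and 6. A match is a run of letters, not a measured site, and motifs of other factors are not reported here. The stretches below are the 150 bases up to the annotated start, 5′ to 3′, with motif letters in capitals.
Mrpl28, chr17:26123353-26123502 (plus strand), the single member that passed the test in a comparison, with neither motif: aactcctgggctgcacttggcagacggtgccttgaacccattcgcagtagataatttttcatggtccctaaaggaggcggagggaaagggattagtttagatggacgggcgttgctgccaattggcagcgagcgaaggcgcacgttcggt
Mrps21, chr3:95871515-95871664 (minus strand), the member with the next smallest p in that comparison, with neither motif: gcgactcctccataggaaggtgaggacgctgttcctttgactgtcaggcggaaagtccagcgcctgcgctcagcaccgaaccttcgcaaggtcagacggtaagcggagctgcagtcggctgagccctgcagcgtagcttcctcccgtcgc
Mrpl3, chr9:105053118-105053267 (plus strand), a protein near the peptidyl transferase centre of the large subunit, with an ETS core: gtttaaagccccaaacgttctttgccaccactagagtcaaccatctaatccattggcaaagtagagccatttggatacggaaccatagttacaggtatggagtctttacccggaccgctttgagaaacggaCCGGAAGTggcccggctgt
Mrps22, chr9:98601680-98601829 (minus strand), a small subunit protein found in mitochondria and not in bacteria, with an ETS core: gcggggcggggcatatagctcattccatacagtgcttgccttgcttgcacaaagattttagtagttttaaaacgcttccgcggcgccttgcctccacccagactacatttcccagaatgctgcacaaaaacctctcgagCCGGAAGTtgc
Mrps11, chr7:78782981-78783130 (plus strand), a small subunit protein with a bacterial counterpart, with a YY1 core on the other strand: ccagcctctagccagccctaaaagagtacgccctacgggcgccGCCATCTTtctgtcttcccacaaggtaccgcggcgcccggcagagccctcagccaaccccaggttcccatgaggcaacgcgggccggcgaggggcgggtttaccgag
Members with and without a motif had like fold changes. For loss of Fgf21, pooled over both Clpp genotypes, the median log2 fold change was 0.20 over the 22 members with a motif and 0.20 over the 47 without. For loss of Clpp both medians were -0.11.

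Levels between genes are compared per kilobase of the median coding transcript in GENCODE M21, in CPM after TMM scaling and averaged over all 16 libraries; the choice of isoform limits them. The median was 26.9 CPM per kb over large subunit members and 22.9 over small subunit members. In the large subunit Mrpl42 was highest at 227 CPM per kb, then Mrpl30 at 129 and Mrpl12 at 80.4, and Mrpl19, Mrpl57 and Mrpl32 were lowest at 3.40, 4.202 and 4.74. MRPL12 forms part of the stalk that recruits translation factors. In the small subunit Mrps21 was highest at 117 CPM per kb, then Mrps23 at 61.5 and Mrps36 at 61.2, and Mrps26, Mrps25 and Mrps10 were lowest at 5.05, 5.69 and 6.75. By place in the structure and not by symbol, members with a bacterial counterpart had medians of 30.5 CPM per kb (large subunit) and 23.2 (small subunit). Members found in mitochondria alone had 26.2 and 21.6. Overlap with other genes limits some values. Measured by 31-base words of their transcripts on either strand, 26 members share over 10% with other genes of the table, and 17 share none. Among the 26 are Mrpl53 (84.4%), Mrps34 (73.8%, the most with Mapk8ip3) and Mrps25 (68.9%, the most with Nr2c2).

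The 2 subunits moved as 1 block from library to library. The score of a subunit is the mean, over its members, of each member's log2 CPM minus that member's mean over all libraries. The large subunit score ran from -0.39 in wild-type replicate 2 to 0.40 in Fgf21 KO replicate 1, a range of 0.79, whereas the large score minus the small score ran only from -0.05 to 0.04. A score of 27 factors of assembly and rRNA modification was lowest and highest in the same libraries (-0.32 and 0.21), so this movement was not limited to the members. The large score averaged 0.04 ± 0.09 in double KO, -0.14 ± 0.12 in Clpp KO, 0.14 ± 0.22 for Fgf21 KO and -0.05 ± 0.24 for wild type (SD, n = 4 each). The small score averaged 0.05 ± 0.07, -0.13 ± 0.12, 0.14 ± 0.21 and -0.05 ± 0.21 in the same order of genotypes. A score over members chosen with results known carries no test, so none is given. Counts of large over small subunit members gave ratios of 2.15 ± 0.07 in double KO, 2.13 ± 0.03 in Clpp KO, 2.15 ± 0.04 for Fgf21 KO and 2.14 ± 0.08 for wild type (SD, n = 4 each). The difference in this ratio between any pair of genotypes was smaller than the spread within wild type.

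**Figure D1:**
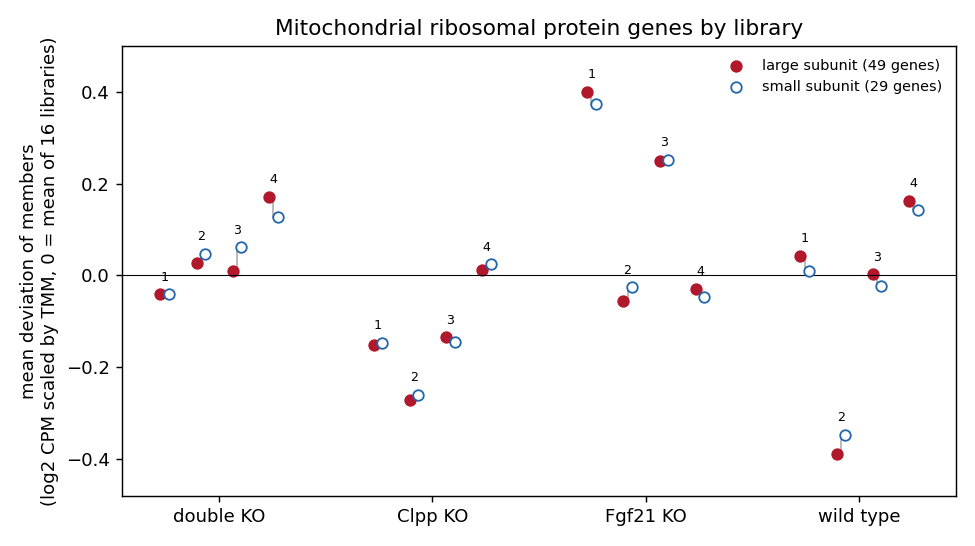
Mean deviation of the large (filled) and small (open) subunit members from their mean over the 16 libraries, in log2 CPM scaled by TMM, by library; each joined pair of points is a library, numbered by replicate, in double KO, Clpp KO, Fgf21 KO and wild type. Filled and open points stay close in each library while the pairs run from -0.39 in wild-type replicate 2 to 0.40 in Fgf21 KO replicate 1 for the large subunit.

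Single members departed little from the block. The SD over the 16 libraries had a median of 0.24 log2 units, and 0.12 after the mean of all members was taken off in each library. After that step 13 members kept an SD above 0.2. The 5 farthest, chosen after their values were seen, were Mrpl23 (0.60), Mrps6 (0.39), Mrpl39 (0.26), Mrps2 (0.25) and Mrps27 (0.25). Mrpl23 had 9.02, 3.00, 7.14 and 6.93 CPM in double KO, 4.02, 4.03, 7.56 and 9.80 in Clpp KO, 11.3, 7.55, 8.14 and 8.52 in Fgf21 KO, and 5.97, 13.1, 10.7 and 13.6 in wild type. Its values thus varied more than 2-fold within 3 of the 4 groups. Other genes share 14.1% of its 31-base words. The most are shared with the pseudogene Mrpl23-ps1, which had more counts than Mrpl23 itself. The biological coefficient of variation, which measures spread between libraries of a group beyond counting error, had medians of 0.155 for large and 0.157 for small subunit members, against 0.150 for the 7748 genes in the same range of level.

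**Figure D2:**
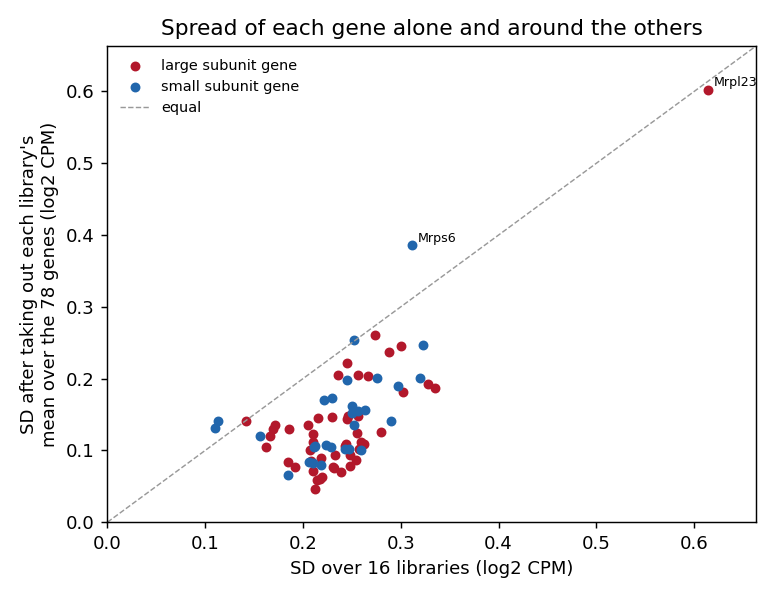
SD of each member's log2 CPM over the 16 libraries before (x axis) and after (y axis) the mean of all members was subtracted in each library, in log2 units; points are members, coloured by subunit. The middle 50% of members lie at 0.0952 to 0.168 after the subtraction, and Mrpl23 and Mrps6 stand out at 0.60 and 0.39.

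Genotypes were compared gene by gene with edgeR's quasi-likelihood test on all 15255 genes that passed the count filter, with Benjamini-Hochberg adjustment over all of them, and a gene is called when its adjusted p is below 0.05. Fold changes are log2 values scaled by TMM, with the standard error after ±.

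In Clpp KO against wild type the members had mostly negative fold changes and none was called. Of 78 members 21 had a positive fold change (26.9%, against 45.8% of all genes tested), with medians of -0.09 for each subunit and -0.04 over all genes. Of all genes 1.63% were called, so 0 of 78 is near that background. At an unadjusted p below 0.05, 6 members were lower and 0 higher (7.69% of members lower, against 12.1% of all genes lower and 9.22% higher). In the large subunit the smallest p-values were those of Mrpl28 (-0.43 ± 0.16, adjusted p = 0.155), Mrpl33 (-0.40 ± 0.15, 0.160) and Mrpl20 (-0.33 ± 0.15, 0.205). In the small subunit they were those of Mrps21 (-0.44 ± 0.15, 0.137), Mrps12, a protein of the decoding centre (-0.34 ± 0.14, 0.197), and Mrps6 (-0.39 ± 0.19, 0.235). The 4 Clpp KO libraries lay below the 4 wild-type libraries in 3 members, Mrps21, Mrps12 and Mrps17 (3.85% of members; 5.93% of all genes did so, and 7.75% lay above). Mrps12 had 14.9, 15.4, 16.2 and 17.5 CPM in Clpp KO and 18.7, 18.2, 18.5 and 25.6 in wild type. Mrps6 had 16.3, 20.7, 16.1 and 16.6 CPM in Clpp KO and 17.004, 31.6, 15.7 and 27.3 in wild type, so its lower mean rests on wild-type replicates 2 and 4, the libraries rich in atrial RNA, and without them its fold change was 0.10. Without those 2 libraries the medians were -0.16 and -0.12, with 10 of 78 members positive, and with the mean log2 CPM of the atrial markers as a covariate they were -0.08 and -0.08, with 25 positive and 0 called. Leaving out 1 library at a time moved the medians between -0.20 (without wild-type replicate 2) and -0.03 (without wild-type replicate 4) in the large subunit and between -0.19 (without Clpp KO replicate 4) and -0.02 (without wild-type replicate 4) in the small one.

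Pooling the 8 libraries that lack Clpp (double KO and Clpp KO) against the 8 that have it (Fgf21 KO and wild type) gave the single called member. Mrpl28, a large subunit protein (chromosome 17, 26123500 to 26126613, plus strand), had 57.1, 61.5, 63.5 and 63.2 CPM in double KO and 48.4, 42.9, 51.0 and 53.2 in Clpp KO, against 108, 67.2, 80.4 and 67.7 in Fgf21 KO and 71.7, 46.7, 68.3 and 77.4 in wild type. All double KO libraries were below all Fgf21 KO libraries, and Clpp KO overlapped wild type only at wild-type replicate 2. The log2 fold change was -0.42 ± 0.11 (adjusted p = 0.0467). Of all genes 5.11% were called in this comparison, so 1 of 78 is below the background. The call depends on single libraries: the adjusted p ran from 0.00935 to 0.0977 and stayed below 0.05 in 4 of 16 fits that left out 1 library, those without Fgf21 KO replicate 2 or 4 or wild-type replicate 2 or 3. It was also above 0.05 with the replicate number as a block (0.0599), with no filter on low counts (0.0562) and with wild-type replicates 1 and 3 summed into 1 (0.0529), and it was 0.0185 when both atrial-rich wild-type libraries were dropped and 0.0197 with the atrial covariate. Mrpl28 lies on the same chromosome as Clpp, as do 7 other members; the median of these 8 was -0.10.

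Mrps21, a small subunit protein with a bacterial counterpart, came next at -0.38 ± 0.11 (adjusted p = 0.0543). It had 41.0, 41.8, 48.03 and 49.1 CPM in double KO and 36.8, 31.7, 37.003 and 44.1 in Clpp KO, against 71.9, 46.4, 59.4 and 46.7 in Fgf21 KO and 49.2, 47.1, 44.2 and 63.2 in wild type. Double KO replicates 1 and 2 lay below all Fgf21 KO and wild-type libraries and replicates 3 and 4 lay among them, while all Clpp KO libraries lay below them, the highest by a narrow margin. Over all members in the pooled comparison, 18 of 78 were positive (23.1%, against 46.7% of all genes), with medians of -0.11 in each subunit (-0.13 and -0.14 when both atrial-rich wild-type libraries were dropped, and -0.06 and -0.07 without Fgf21 KO replicate 1), and 13 members were lower and 0 higher at an unadjusted p below 0.05 (16.7%, against 13.7% of all genes lower and 11.7% higher). No member separated the 8 libraries without Clpp from the 8 with it (1.24% of all genes did so higher and 0.249% lower).

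**Figure D3:**
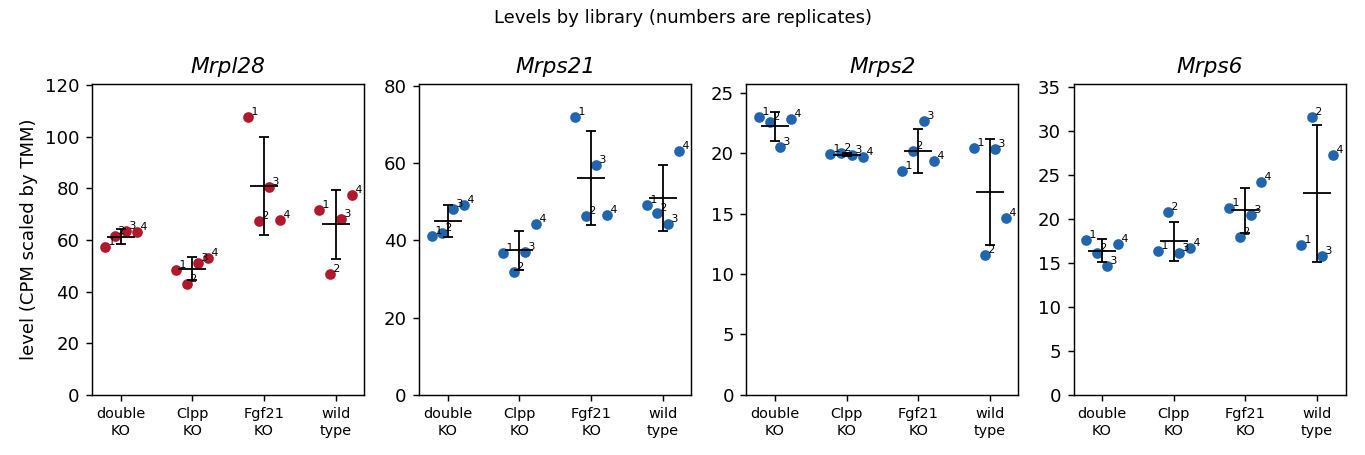
Levels of Mrpl28, Mrps21, Mrps2 and Mrps6 by library in CPM scaled by TMM, on linear axes from 0; points are libraries in double KO, Clpp KO, Fgf21 KO and wild type, numbered by replicate, with the group mean and SD as bars. Mrpl28 and Mrps21 are lowest in Clpp KO, at 42.9 to 53.2 and 31.7 to 44.1 CPM, and in wild-type replicates 2 and 4 Mrps6 is high, at 31.6 and 27.3 CPM, and Mrps2 low, at 11.6 and 14.7 CPM.

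Loss of Fgf21 went with small positive fold changes in nearly every member, none of which passed the test. In Fgf21 KO against wild type 73 of 78 members were positive (93.6%, against 48.2% of all genes), with medians of 0.20 in the large and 0.19 in the small subunit and -0.01 over all genes. In double KO against Clpp KO, which uses none of the same libraries, 75 of 78 were positive (96.2%, against 51.8% of all genes), with medians of 0.18 in both subunits and 0.01 over all genes. The numbers called were 0 of 78 in both comparisons, where 0.0459% and 0.059% of all genes were called. Members are not independent of each other, since they move as a block, so these counts do not measure how sure the direction is. In these comparisons markers of heart muscle cells mostly had fold changes of the same sign and like size. In Fgf21 KO against wild type all 5 general markers were positive (median 0.25), as were all 4 of the ventricle (Myl2, Myl3, Irx4 and Kcnip2; median 0.34), and 0 of 5 fibroblast markers (Col1a1, Col1a2, Dcn, Pdgfra and Lum; median -0.68) and 0 of 6 atrial markers (median -1.65) were. In double KO against Clpp KO 5 of 5 general (median 0.15) and 3 of 4 ventricular markers (median 0.31) were positive, and 0 of 5 fibroblast (median -0.28) and 0 of 6 atrial markers (median -1.55) were. None of these markers was called in either comparison. The ventricular markers summed to 9201 to 10839 CPM in double KO and 7027 to 10418 in Clpp KO, and to 8024 to 14501 in Fgf21 KO and 5244 to 10265 in wild type. The libraries with the highest and lowest large subunit score, Fgf21 KO replicate 1 and wild-type replicate 2, also had the highest and lowest sums of general and of ventricular heart muscle markers. In Clpp KO against wild type, where members were mostly negative, 3 of 5 general (median 0.08) and 2 of 4 ventricular markers (median 0.07) were positive. The part of these cell type markers in the members' shift was not tested.

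Between Fgf21 KO and wild type no member separated the groups (1.15% of all genes did so higher and 1.57% lower), and 2 were higher and 0 lower at an unadjusted p below 0.05, both of the large subunit (2.56% of members, against 2.88% of all genes higher and 6.29% lower). The smallest p-values were those of Mrpl57 (0.29 ± 0.13), Mrpl43 (0.29 ± 0.14) and Mrpl14 (0.27 ± 0.13) in the large subunit, each with an adjusted p of 0.538. In the small subunit they were those of Mrps35 (0.31 ± 0.15, 0.538), Mrps9 (0.27 ± 0.13, 0.538) and Mrps18a (0.30 ± 0.16, 0.543). Mrpl14 had 42.5, 33.6, 36.1 and 29.8 CPM in Fgf21 KO and 31.6, 23.9, 29.4 and 33.1 in wild type. Fgf21 KO replicates 1, 2 and 3 lay above all wild-type libraries, and replicate 4 lay among them. Without wild-type replicates 2 and 4 the medians were 0.16 in each subunit, with 67 of 78 positive. Leaving out 1 library at a time moved the medians between 0.096 (without wild-type replicate 2) and 0.28 (without Fgf21 KO replicate 2) in the large subunit, and between 0.104 (without Fgf21 KO replicate 1) and 0.26 (without Fgf21 KO replicate 4) in the small one.

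Double KO and Clpp KO did not overlap in 11 members, all higher in double KO, 9 of the large and 2 of the small subunit (14.1% of members, against 3.11% of all genes higher and 2.67% lower): Mrpl4, Mrpl28, Mrpl32, Mrpl37, Mrpl41, Mrpl42, Mrpl43, Mrpl46, Mrpl53, Mrps2 and Mrps10. At an unadjusted p below 0.05, 2 members were higher and 0 lower (2.56%, against 2.01% of all genes higher and 1.55% lower). The smallest p-values were those of Mrpl41 (0.29 ± 0.14), Mrpl14 (0.27 ± 0.13) and Mrpl47 (0.27 ± 0.13) in the large subunit and Mrps10 (0.32 ± 0.14), Mrps34 (0.41 ± 0.18) and Mrps26 (0.31 ± 0.15) in the small subunit, all with an adjusted p of 0.994. Mrps10 had 7.10, 8.16, 9.003 and 7.60 CPM in double KO and 6.54, 6.17, 5.90 and 6.98 in Clpp KO. Mrpl42 had 146, 157, 143 and 163 CPM in double KO and 130, 117, 133 and 139 in Clpp KO. In both members the gap between the groups was narrower than the spread within each group. The atrial markers summed to 161 to 1405 CPM in double KO and 187 to 3484 in Clpp KO, and with the atrial covariate the medians were 0.10 and 0.07, with 61 of 78 positive. Fibroblast markers summed to 395 ± 74.3 CPM in double KO and 493 ± 123 in Clpp KO, with 408 ± 50.9 for Fgf21 KO and 577 ± 201 for wild type (SD, n = 4 each).

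With both pairs of genotypes pooled, loss of Fgf21 gave 76 of 78 positive members (97.4%, against 49.2% of all genes), medians of 0.19 in the large and 0.21 in the small subunit, and 0 called, where 0.144% of all genes were called. Dropping both atrial-rich wild-type libraries gave medians of 0.18 and 0.16, with 77 positive, dropping wild-type replicate 2 alone gave 0.13 and 0.15, and the atrial covariate gave 0.15 and 0.16, also with 77 positive. At an unadjusted p below 0.05, 28 members were higher and 0 lower (35.9%, against 5.64% of all genes higher and 6.04% lower). No member separated the 8 libraries without Fgf21 from the 8 with it (0.105% of all genes did so higher and 0.0459% lower). The interaction, which is double KO minus Clpp KO less Fgf21 KO minus wild type, had a median of -0.01 in each subunit, 36 of 78 positive members (46.2%, against 53.1% of all genes), 0 called and 0 at an unadjusted p below 0.05, where 0% of all genes were called and 1.96% had such a p (1.42% higher and 0.544% lower). The interaction's medians were 0.03 and 0.002 when both atrial-rich wild-type libraries were dropped and -0.12 and -0.09 with the atrial covariate, and with 1 library left out they ran from -0.08 to 0.10.

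**Figure D4:**
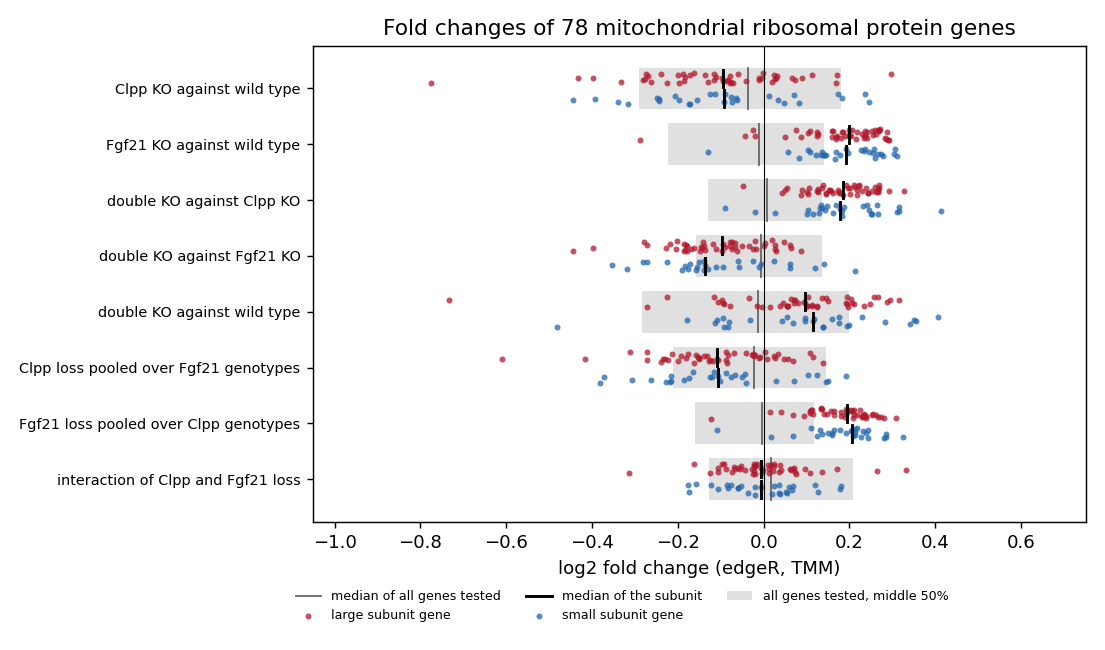
Log2 fold changes of the 78 members (x axis, scaled by TMM) in each of the 8 comparisons; points are members, large subunit above small, thick marks are the medians of the subunits, thin marks the median and grey boxes the middle 50% of all genes tested. Members lie mostly above 0 where Fgf21 was lost (medians 0.18 to 0.21) and mostly below 0 in Clpp KO against wild type (median -0.09), with the subunits alike in each.

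Double KO against Fgf21 KO again gave mostly negative fold changes: 16 of 78 were positive (20.5%, against 48.8% of all genes), the medians were -0.10 and -0.14, and 0 were called, against 0.892% of all genes. At an unadjusted p below 0.05, 2 members were lower, Mrpl28 (-0.40 ± 0.16, adjusted p = 0.621) and Mrps33 (-0.28 ± 0.12, 0.657), which is 2.56% of members against 2.9% of all genes lower and 4.19% higher. Groups did not overlap in Mrpl28 and Mrps6, both lower (2.56% of members, against 1.92% of all genes lower and 3.88% higher). The medians rest largely on Fgf21 KO replicate 1: without it they were -0.005 and -0.02, with 36 of 78 members positive, and without other single libraries they reached -0.18 and -0.20. With the atrial covariate they were -0.22 and -0.20. Against wild type, double KO had 57 of 78 positive (73.1%, against 48.7% of all genes), the medians were 0.10 and 0.11, and 0 were called, against 1.53% of all genes. At an unadjusted p below 0.05, 4 were higher and 1 lower (5.13% and 1.28%, against 9.7% and 13.1% of all genes), and groups did not overlap in 3, all higher (3.85%, against 5.36% of all genes higher and 4.48% lower). The smallest p was that of Mrps2, a small subunit protein with a bacterial counterpart, at 0.41 ± 0.14 (adjusted p = 0.128). Mrps2 had 23.0, 22.6, 20.5 and 22.9 CPM in double KO and 20.5, 11.6, 20.3 and 14.7 in wild type, so the groups lie apart, by a small margin at wild-type replicates 1 and 3 and by a wide one at replicates 2 and 4. Mrps6 followed at -0.48 ± 0.19 (adjusted p = 0.154), Mrps10 at 0.35 ± 0.14 (0.155) and Mrps30 at 0.35 ± 0.14 (0.158). Without wild-type replicates 2 and 4 the medians for double KO against wild type were 0.01 and 0.02, with 45 of 78 positive, and with the atrial covariate they were -0.003 and 0.03, with 39 positive. Without wild-type replicate 2 alone they were -0.02 and -0.001, and without wild-type replicate 4 alone 0.17 and 0.19.

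Members with well known roles mostly showed the same picture of small shifts. For pooled loss of Clpp and then of Fgf21, Mrpl12 was at -0.21 ± 0.13 and 0.18 ± 0.13, Mrpl44 at -0.02 ± 0.11 and 0.23 ± 0.11, and Mrpl45 at -0.13 ± 0.15 and 0.20 ± 0.15. Variants of MRPL44 cause cardiomyopathy in humans. Mrpl58, a peptidyl-tRNA hydrolase built into the large subunit, was at -0.14 ± 0.10 and 0.25 ± 0.10. In the small subunit Mrps12 was at -0.31 ± 0.10 and 0.21 ± 0.10. Mrps22 was at 0.07 ± 0.13 and 0.16 ± 0.13, Mrps28 at -0.12 ± 0.09 and 0.16 ± 0.09, and Mrps34 at -0.23 ± 0.13 and 0.32 ± 0.13. The Mrps18 family, 3 related proteins of which Mrps18a sits in the large subunit, was at -0.05 ± 0.11 and 0.24 ± 0.11 for Mrps18a, -0.07 ± 0.10 and 0.21 ± 0.10 for Mrps18b, and -0.08 ± 0.10 and 0.21 ± 0.10 for Mrps18c. Mrps30, which also sits in the large subunit, was at 0.15 ± 0.10 and 0.21 ± 0.10. The Mrps36 gene was at -0.22 ± 0.10 and 0.14 ± 0.10. Adjusted p-values were 0.088 and 0.435 for Mrps12 and 0.186 and 0.549 for Mrps36. The other genes of this paragraph had adjusted p-values from 0.27 to 0.91 for Clpp and 0.41 to 0.59 for Fgf21. None passed the test.

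The other protein genes of the particle, whose symbols lie outside the Mrpl and Mrps names (Aurkaip1, Chchd1, Dap3, Gadd45gip1 and Ptcd3), gave 0 of 5 called by edgeR in all comparisons (at an unadjusted p below 0.05, 1 was lower for pooled loss of Clpp and 2 higher for pooled loss of Fgf21), with a median of -0.20 in Clpp KO against wild type and 0.24 in Fgf21 KO against wild type. Of all genes 13.7% were lower at such a p for pooled loss of Clpp and 5.64% higher for pooled loss of Fgf21. Of 27 factors of assembly and rRNA modification, Mterf4 alone was called, and lower. It was called in double KO against wild type, where 1.53% of all genes were called, and for pooled loss of Clpp, where 5.11% were. MTERF4 brings the methyltransferase NSUN4 to the large subunit. It had 11.2 ± 1.33 CPM in double KO, 12.3 ± 0.44 in Clpp KO, 14.5 ± 2.34 for Fgf21 KO and 17.97 ± 4.88 for wild type (SD, n = 4 each), with a fold change of -0.69 ± 0.16 in double KO against wild type (adjusted p = 0.0431) and -0.46 ± 0.11 for pooled loss of Clpp (adjusted p = 0.0285). Wild-type replicate 2 held 25.1 CPM, and without wild-type replicates 2 and 4 the values were -0.41 (adjusted p = 0.248) and -0.33 (0.0512). Eral1 had 15.5 ± 1.37 CPM in double KO, 14.8 ± 1.25 in Clpp KO, 15.5 ± 1.304 in Fgf21 KO and 13.8 ± 1.55 in wild type, and the groups overlapped. For pooled loss of Fgf21, 6 of the 27 assembly factors were higher and 0 lower at an unadjusted p below 0.05. Of all genes 5.64% were higher and 6.04% lower at such a p. In Fgf21 KO against wild type 23 of the 27 assembly factors were positive (median 0.16). No gene was called by edgeR among 13 translation factors, such as Tufm and Gfm1, or 11 regulators of mitochondrial gene expression, such as Nrf1, Gabpa and Ppargc1a. At an unadjusted p below 0.05, 0 translation factors and 4 regulators were higher for pooled loss of Clpp, against 11.7% of all genes. For pooled loss of Fgf21 1 of each was higher and 1 regulator was lower, against 5.64% and 6.04% of all genes. Of the translation factors 12 of 13 were positive in Fgf21 KO against wild type (median 0.27) and 11 in double KO against Clpp KO (median 0.09). Of the 84 tested ribosomal proteins of the cytosol, 7 were positive in Clpp KO against wild type (median -0.17) and 18 in Fgf21 KO against wild type (median -0.07), but 74 in double KO against Clpp KO (median 0.07).

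The messages that the particle translates had larger fold changes than its proteins' RNAs. Of 13 mRNAs of mitochondrial DNA, 11 were called higher in Clpp KO against wild type (median 1.54), 11 in double KO against wild type (1.74) and 10 in double KO against Fgf21 KO (1.47). Of all genes 1.63%, 1.53% and 0.892% were called in these comparisons, in either direction. These mRNAs took 58.8 ± 1.99% of all counts in double KO and 58.0 ± 1.44% in Clpp KO, against 36.1 ± 4.62% for Fgf21 KO and 33.2 ± 7.09% for wild type (SD, n = 4 each). For each count of a member there were 302 ± 29.9 counts of these mRNAs in double KO and 305 ± 18.05 in Clpp KO, against 108 ± 27.6 in Fgf21 KO and 99.0 ± 30.7 in wild type. The lowest of the 8 libraries without Clpp was at 262 and the highest of the 8 with Clpp at 131, so the groups did not overlap. The 2 ribosomal RNAs of mitochondrial DNA were not analysed here.

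**Figure D5:**
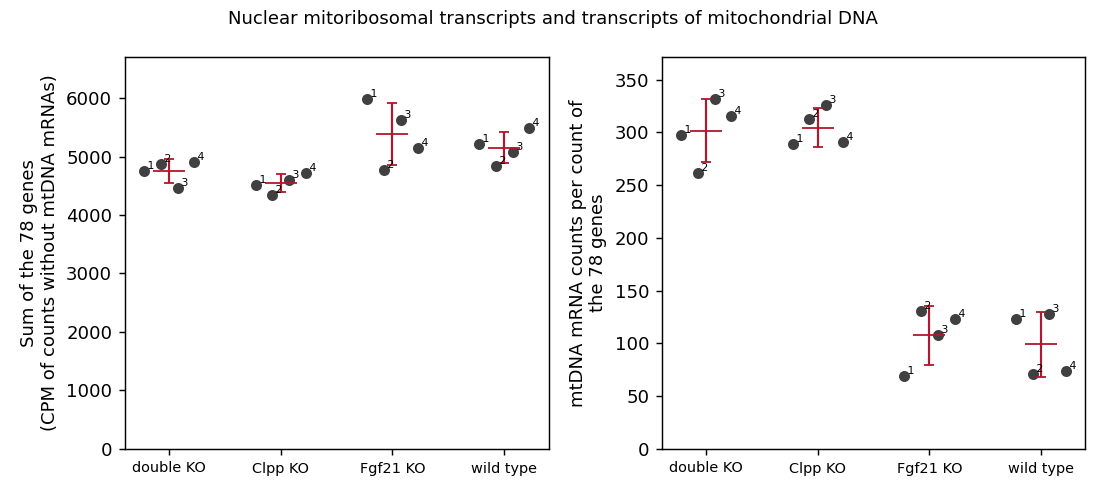
Left, summed level of the 78 members in CPM of the counts without mitochondrial mRNAs; right, counts of the 13 mitochondrial mRNAs for each count of a member; points are libraries in double KO, Clpp KO, Fgf21 KO and wild type, numbered by replicate, with the group mean and SD as bars, and both axes start at 0. On the right all libraries without Clpp lie at 262 or above and all with Clpp at 131 or below, while on the left the means run from 4549 in Clpp KO to 5386 in Fgf21 KO.

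This share bears on the scale of fold changes that involve Clpp where libraries are scaled by their totals. Under TMM, taking the mitochondrial mRNAs out left all 49 values of named genes with the same direction and side of the threshold. The counts of called members stayed the same. No subunit median moved by more than the within-group SD of that subunit's score (0.179 large, 0.162 small). By library total the members summed to 1959 ± 142 CPM in double KO and 1908 ± 78.1 in Clpp KO, against 3459 ± 570 for Fgf21 KO and 3438 ± 382 for wild type (SD, n = 4 each). With the mitochondrial mRNAs taken out of the totals they summed to 4749 ± 204, 4549 ± 157, 5386 ± 529 and 5153 ± 267 in the same order of genotypes, and Clpp KO (4349 to 4723) lay below wild type (4839 to 5481) without overlap. Under TMM the Clpp KO and wild-type sums overlapped, at 1437 to 1737 against 1318 to 1987 CPM for the large subunit. For the small subunit they were at 671 to 830 against 653 to 915 CPM. With libraries scaled by their totals alone, all 78 members were called lower in Clpp KO against wild type, where 78.2% of all genes were called (77.6% lower), with medians of -0.83 in each subunit and -0.79 over all genes. For double KO against wild type the direction itself depended on the scale, with medians of 0.10 and 0.11 under TMM and -0.78 and -0.76 by totals alone, where all genes had -0.92. Relative to all genes, members thus stayed slightly below in Clpp KO and slightly above in double KO under both scales. For loss of Fgf21 the medians by totals alone were 0.02 and 0.00 in Fgf21 KO against wild type, where all genes shifted to -0.23, and 0.04 and 0.03 in double KO against Clpp KO, where they shifted to -0.14.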

How the data were processed

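RNA was sequenced from 16 cardiac libraries of 4 genotypes, 4 each, with a TruSeq stranded mRNA kit per the labels' protocols. The deposited table holds whole-number counts per gene. Per the submitters' processing notes the authors used fastp 0.21.0, kallisto 0.46.1, GRCm38.p6, edgeR 3.32.1, DESeq2 1.30.1 and R 4.0.3. kallisto shares reads between like transcripts and gives estimates that need not be whole; how these became whole numbers, and the strand setting, are not given in the sources at hand.

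From these counts, 15255 genes passed the filterByExpr function of edgeR 4.0.16 (count minimum 10, total minimum 15). Libraries were scaled by TMM (factors 0.674 to 1.83), and all 16 libraries entered 1 robust quasi-likelihood fit (12 residual degrees of freedom). Tests are two-sided, with Benjamini-Hochberg adjustment over all genes and a threshold of 0.05. R 4.3.3 and, for alternatives, DESeq2 1.42.0 were used. The table was fitted as deposited; 440 symbols stand on more than 1 entry, 372 of them with identical counts. The fit was also run on simulated counts with planted changes larger than the shifts of nearly all members. That run does not show whether shifts as small as those of the members would be found. Coordinates are those of GENCODE M21.

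The members and the gene lists were chosen with earlier results of these data known. Named by rule are called members (or, with none called, the 3 of each subunit with the smallest p), Clpp, Fgf21, Eral1, members with well known roles or an unusual place, the 3 highest and 3 lowest per kb of each subunit, the member nearest the CPM limit, and up to 4 called genes of each other list; any other named gene was chosen after its values were seen. Alternatives were scaling by library total or DESeq2 size factors, mitochondrial mRNAs taken out, no filter, the replicate number as a block, wild-type replicates 2 and 4 left out, wild-type replicates 1 and 3 summed, an atrial covariate, DESeq2's own test, each library left out, and, chosen after seeing the data, 1 entry per symbol.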

Additional observations from a re-analysis of the deposited data

Results flagged for a closer look

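Dixon's test was run on 76 groups of 4 libraries, for some of the named members and for scores, sums and ratios by library. In 5 groups, all of single members, a library's gap to the nearest other, as a share of the group's range, was above the 95% critical value. Chance passes that value in about 1 of 20 groups. Mrps2 in double KO was lowest in replicate 3, at 20.5 CPM, against 22.6 to 23.0 in the others. Mrps6 in Clpp KO was highest in replicate 2, at 20.7 CPM, against 16.1 to 16.6. Mrps12 in wild type was highest in replicate 4, at 25.6 CPM, against 18.2 to 18.7, and Mrpl57 in wild type was highest in the same library, at 12.4 CPM, against 10.1 to 10.4. Mrps10 in wild type was lowest in replicate 2, at 4.48 CPM, against 6.60 to 7.03. Wild-type replicates 2 and 4 are the libraries with the highest atrial marker sums.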

How the results depend on the processing

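With library size alone, 78 members were called, all lower, in Clpp KO against wild type, double KO against Fgf21 KO, double KO against wild type and pooled loss of Clpp, where 77.6%, 70.5%, 85.5% and 86.5% of all genes were called lower. Its medians for the large and small subunit were -0.827 and -0.835, -0.801 and -0.831, -0.778 and -0.764, and -0.820 and -0.826 in these comparisons, beside all-gene medians of -0.793, -0.700, -0.920 and -0.747. They were 0.0202 and 0.0001998 in Fgf21 KO against wild type, where all genes had -0.226, and the small subunit had 0.0283 for pooled loss of Fgf21, where all genes had -0.187. In double KO against wild type it reversed Mrpl57 (-0.631), Mrpl3 (-0.562), Mrps2 (-0.447) and Mrps10 (-0.524).

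The count of 1 called member for pooled loss of Clpp was 0 with no filter and 2 without wild-type replicates 2 and 4. It was also 2 with wild-type replicates 1 and 3 summed, where Mrpl28 was not among those called. With the atrial covariate it was 3, as it was by DESeq2's own test, which called 0 members in the other comparisons. Shares of all genes called in these settings included 4.01%, 8.51%, 4.54% and 10.02%, and are not matched to single settings here. Leaving out 1 library at a time gave 0 to 3 called members, with the shares of all genes not given here. In double KO against wild type the count was 0 to 2: Mrps2 was called without wild-type replicate 1 or 3 (adjusted p = 0.0498 and 0.0474) and Mrps6 without replicate 3 (0.0431), where 5.60% and 7.19% of all genes were called. Without both wild-type replicates 2 and 4, Mrps6 in Clpp KO against wild type turned to 0.0973 and Mrps31 in the interaction to 0.0954. Mterf4 was called for pooled loss of Clpp in 9 of 16 such fits and in double KO against wild type in 3. The cause of these changes was not tested.

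Deviations from the group means correlated at -0.228 to 0.364 between same-numbered replicates, above 0.1 in 4 of 24 pairs. Values for differently numbered replicates are not given here, so these do not decide whether replicates pair by number. With the replicate block, the count for pooled loss of Clpp was 0, and Mrpl28 had an adjusted p of 0.0599.

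Of 1274 values of named genes under other settings, 1212 kept their direction and side of the threshold. Medians over all members are descriptions. Shifts of 0.2 log2 units were no larger than the median SD of members within groups, at 0.21 in each subunit. The parts of library depth and of spread between libraries in this were not tested.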
